A study of Homo sapiens with 6 samples.

Results

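The nuclear genes for the subunits of the mitochondrial respiratory chain and of ATP synthase were examined in BxPC-3, a long-established cell line from a human pancreatic cancer, with and without miR-4711-5p treatment. The genes were chosen by symbol: 88 of the 26255 gene rows carried a symbol of the NDUFA, NDUFB, NDUFC, NDUFS, NDUFV, SDH, UQCR, CYC1, nuclear COX or ATP5 series, and the 79 whose 6 libraries averaged 1 FPKM or more were kept. FPKM is a level per length, the fragments assigned to a gene divided by its length in kilobases and by library size. The measured level served only for this threshold. Complex I had 37 genes, all of which passed, complex II had 4 of 4, complex III 9 of 11, complex IV 12 of 17 and complex V, the ATP synthase, 17 of 19.

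RNA sequencing was done on 3 groups of 2 libraries each. The Parent group received no treatment, the NC-1 group a negative control treatment and the miR-4711-5p group the miRNA. The treated cells were taken 36 h after the start of treatment. All groups are the same cell line, Parent cells received neither treatment, and no source says whether the 2 libraries of a group came from separate cultures, so the p-values below measure only the spread between these libraries, which may be technical. With 2 libraries against 2, an exact permutation test of a single value cannot go below p = 0.333, and calls therefore come from limma, fitted across the 12040 genes that averaged 1 FPKM or more.

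The respiratory chain moves electrons from NADH and succinate to oxygen in the inner mitochondrial membrane. Complex I takes electrons from NADH and complex II from succinate, ubiquinone carries them to complex III, cytochrome c carries them on to complex IV, and the proton gradient built on the way drives ATP synthase. Most subunits are encoded in the nucleus and imported, and a small set, which was not analysed here, is encoded in mitochondrial DNA. In cancer cells the chain also serves aspartate and nucleotide synthesis, since it reoxidises NADH. Several transcription factors, among them NRF1, the ETS factor GABPA and YY1, are known to act on these genes as a group.

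The labels were first read beside known genes. The paper reports that KLF5 and TFDP1 fell in its own RNA sequencing of these cells, so their values here are no independent check. KLF5, which the study names as a target of the miRNA, was at 114 and 124 FPKM in the Parent libraries, 115 and 120.3 in the NC-1 libraries and 66.8 and 59.2 in the miR-4711-5p libraries, and TFDP1, a second named target, was at 44.7 and 48.6 FPKM in the Parent libraries, 38.7 and 44.02 in the NC-1 libraries and 20.6 and 19.9 in the miR-4711-5p libraries. All 8 ductal epithelial markers were detected, from MUC1 at 14.6 FPKM to KRT7 at 1842 FPKM, while CELA3A, CTRB1, AMY2A, INS, GCG and TYROBP, which mark acinar, islet and leukocyte cells, were at 0 in all libraries. The other leukocyte and islet markers were above 0 in some libraries but under 1 FPKM in all. CD37 reached 0.139 FPKM and CHGA 0.0504 FPKM, and the acinar marker CPA1 reached 0.0461 FPKM. PRSS1, a trypsinogen and the acinar marker with the highest level, was at 0.684 and 1.57 FPKM in the Parent libraries, 2.73 and 2.62 in the NC-1 libraries and 3.18 and 5.1 in the miR-4711-5p libraries. It thus increased from Parent through NC-1 to miR-4711-5p. The sum of the 8 ductal markers fell in that order, from 6309 to 6649 FPKM in Parent, 5706 to 5942 in NC-1 and 5442 to 5472 in miR-4711-5p. The ductal markers did not move alike. KRT18, at 1034 and 963 FPKM in NC-1, was at 1251 and 1251 in miR-4711-5p. KRT8 and EPCAM were also higher in miR-4711-5p than in NC-1, while KRT7, KRT19, CDH1, MUC1 and CEACAM6 were lower. The part of these markers in the results was not tested. The 3 endothelial markers summed to between 0.649 and 3.53 FPKM, highest in NC-1, and the 4 fibroblast markers to between 1.29 and 2.41 FPKM. The sum of FPKM over all genes was 550772 and 543074 in Parent, 515688 and 515348 in NC-1, and 493145 and 499659 in miR-4711-5p, and it therefore fell in the same order as the respiratory chain levels described below. The part of this scale difference in the results was not tested beyond the rescaled values given beside them. The number of reads is unknown, and the relative depth read from the steps between the lowest values ran from 0.751 to 1.21 of the Parent 1 library.

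The respiratory chain genes were among the more abundant transcripts of these cells. The median of the 79 genes was 121 FPKM over the 6 libraries, against 11.9 FPKM for all 12040 genes tested, 72 of the 79 were at 30 FPKM or more, and 48 were at 100 FPKM or more. Complex IV had the highest median level at 317 FPKM, followed by complex V at 146, complex III at 115, complex II at 113 and complex I at 75.5 FPKM. The highest was ATP5E, the small epsilon subunit of ATP synthase, with 1185 and 1186 FPKM in the Parent libraries, 1101 and 1136 in the NC-1 libraries and 1059.7 and 1098 in the miR-4711-5p libraries. ATP5B, the catalytic beta subunit, and COX7C, a small membrane subunit of complex IV, followed at 665 and 645 FPKM over the 6 libraries. At the low end, NDUFA5 was the least abundant complex I gene at 9.63 FPKM. Thus genes whose proteins stand side by side in one complex differed widely in transcript level, by a range of 9.63 to 378 FPKM within complex I.

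Tissue isoforms were nearly silent. COX6A2, COX7A1 and COX8C, which are known from heart and muscle or, for COX8C, from testis, had means of 0 FPKM, 0.0732 FPKM and 0.0710 FPKM, and COX4I2 was at 0 in every library. COX7B2 reached 0.206 FPKM in the NC-1 2 library and was at 0 in the others. Their partners COX6A1, COX7A2, COX8A, COX4I1 and COX7B were all above 100 FPKM in every library. The other symbols under the threshold were UQCRHL, UQCRBP1, ATP5EP2 and ATP5L2, retrocopies or pseudogenes, of which ATP5EP2 had the highest mean of all that did not pass, 0.116 FPKM. Just inside the threshold stood COX6B2 at 2.01 FPKM, and ATP5S was next at 5.58 FPKM.

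Most of the 79 genes were below Parent after miR-4711-5p treatment. By limma, 58 fell and 1 rose at an adjusted p under 0.05, against 24.7% of all genes tested that fell and 18.7% that rose. Their median log2 fold change was -0.26, against -0.01 for all genes tested, and 74 of the 79 values were below 0. A smaller set fell against the negative control: 24 fell and 4 rose against NC-1, where 21.2% of all genes tested fell and 18.4% rose, and the median was -0.07 beside 0.00. NC-1 was itself lower than Parent, with 34 of the 79 genes lower and 0 higher by limma, where 15.1% of all genes tested fell and 12.1% rose, and a median of -0.17 beside -0.01. At an unadjusted p under 0.05, for which no share of all genes was counted, 48 were lower and 1 was higher in NC-1. The 3 comparisons share libraries and are given side by side for this reason. A single gene, NDUFV2, rose against both references.

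The level of these genes bears on that background. Among the 602 genes in the highest of 20 level bins, at 132 FPKM or more, which held 31 of the 79, the median was -0.19 with miR-4711-5p against Parent and -0.12 with NC-1 against Parent, so the median of abundant genes was itself below 0 in the treated libraries. Over all genes that averaged 30 FPKM or more, a background chosen after the data were seen, 42.9% fell with miR-4711-5p against Parent, 29.1% fell against NC-1 and 30.6% fell with NC-1 against Parent. Of the 72 respiratory chain genes at that level, 54 (75%), 21 (29.2%) and 34 (47.2%) fell in the same comparisons. Beside abundant genes in general, the share that fell was therefore higher in both comparisons with Parent and about the same against NC-1. The median of these 72 genes was -0.27 against Parent, where that of all genes at the level was -0.12, and it was -0.06 against NC-1 beside -0.01.

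**Figure D1:**
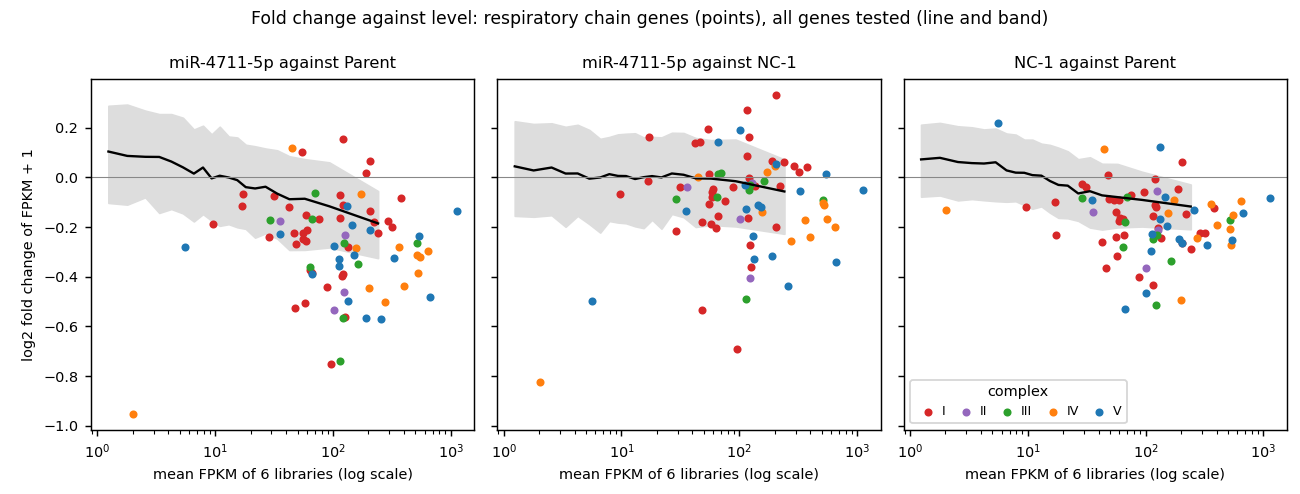
Log2 fold change of FPKM + 1 (vertical axis) against the mean FPKM of the 6 libraries (horizontal axis, log scale) for the 79 respiratory chain genes, coloured by complex, in the 3 comparisons. The black line and grey band are the median and the middle 50% range of all 12040 genes tested in 20 bins of level. The line falls from 0.10 in the lowest bin to -0.19 in the highest bin with miR-4711-5p against Parent, and 74 of the 79 points lie below 0 there.

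The decrease depended on how the libraries were scaled. After scaling every library to the same FPKM sum, 32 genes were lower and 4 higher against Parent, with a median of -0.12. The median of all genes moved to 0.11, so that the difference was -0.23. Under that sum 14.8% of all genes tested fell and 33.3% rose. Cyclic loess, which also removes a trend with level, left 29 lower and 4 higher and a median of -0.12. Of all genes tested 20.6% fell and 20.6% rose under it, with a median of 0.01. The difference of the medians was thus -0.13 under cyclic loess, smaller than the -0.25 without rescaling. Against NC-1 the same FPKM sum gave 16 lower and 10 higher with a median of -0.018 where that of all genes was 0.05, and cyclic loess 18 lower and 7 higher. Of all genes tested, 17.3% fell and 24.3% rose against NC-1 under the same FPKM sum. Under cyclic loess 20.6% fell and 19.6% rose. The 16 and 18 decreases of 79 were thus near the share of all genes. In NC-1 against Parent 16 genes were lower under the same FPKM sum and 13 under cyclic loess, beside 8.3% and 10.7% of all genes tested. Under the same FPKM sum the lower share of all calls over the 12040 genes went from 56.9% to 30.7%. Of the 58 decreases, 26 were called under both scalings and 25 under all alternatives in which the gene was tested. These 25 were ATP5A1, ATP5B, ATP5C1, ATP5F1, ATP5G3, ATP5O, COX5A, COX5B, COX6B1, COX6B2, COX7A2, CYC1, NDUFA12, NDUFA8, NDUFA9, NDUFB10, NDUFB5, NDUFS3, NDUFS7, NDUFV1, SDHA, SDHD, UQCRC1, UQCRC2 and UQCRQ. ATP5G3 was called higher against NC-1. Against NC-1, 11 of 24 decreases were called under all alternatives: ATP5A1, ATP5B, ATP5C1, ATP5O, ATP5S, COX6B2, NDUFA12, NDUFB10, NDUFB5, SDHD and UQCRC2. The other decreases against NC-1 lost the call under some alternative. COX6B2 passed the threshold on level only through the Parent and NC-1 libraries. Without the miR-4711-5p 1 library the median of the 79 genes was -0.25 against Parent and -0.036 against NC-1. In NC-1 against Parent it was -0.16 without the Parent 1 library and -0.16 without the NC-1 1 library.

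The values of single libraries gave the same order. Relative to the mean of the Parent libraries, the median over the 79 genes was -0.17 and -0.16 in the NC-1 libraries and -0.28 and -0.25 in the miR-4711-5p libraries on the log2 scale. Both miR-4711-5p libraries lay below all 4 control libraries for 34 genes (43.0%), against 26.3% of all genes tested, and above all 4 for 2 genes, NDUFA3 and NDUFV2, against 23.8%. For the other 43 genes the miR-4711-5p and control libraries overlapped. The 79 genes together took 2.83% and 2.82% of the FPKM sum in Parent, 2.63% and 2.66% in NC-1, and 2.52% and 2.60% in miR-4711-5p. The 3 groups thus did not overlap in this share, which is free of the difference in total FPKM. The share of the 10 most abundant genes of each library did not overlap either, and fell in the same order. It was 7.12% and 6.99% in Parent, 6.76% and 6.96% in NC-1, and 6.54% and 6.64% in miR-4711-5p. Whether the share of the 79 genes fell beyond that of other abundant genes was not tested. The sum over the 79 genes was 15465 ± 203 FPKM in Parent, 13633 ± 85.9 in NC-1 and 12701 ± 401 in miR-4711-5p (SD, n = 2). In bulk RNA, less RNA per cell and a change in the mix of cells cannot be told apart.

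**Figure D2:**
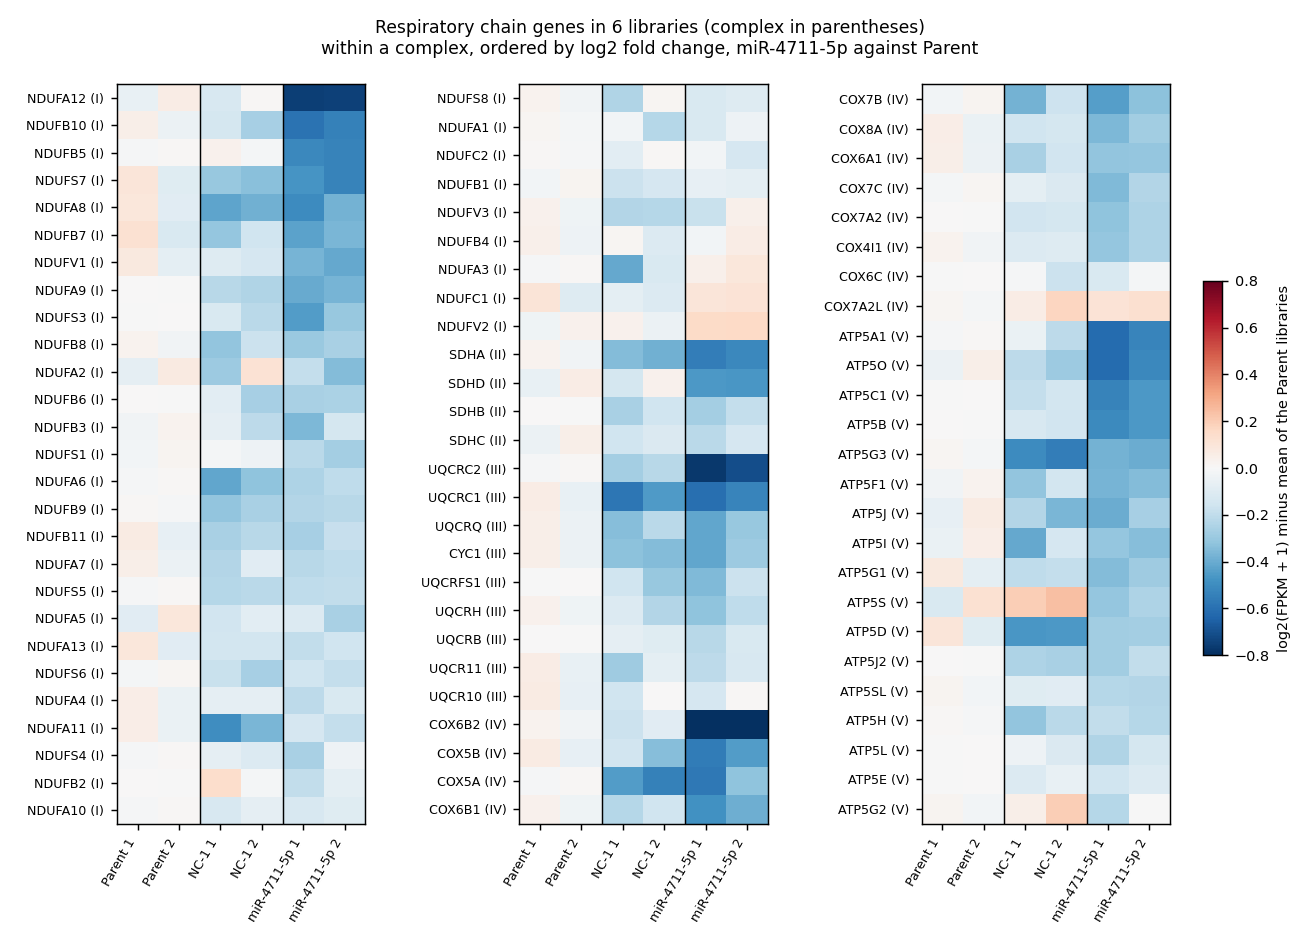
Each row is a respiratory chain gene (1 of the 79 is not drawn) with its complex in parentheses, each column a library, and the colour is log2(FPKM + 1) minus the mean of the 2 Parent libraries, cut off at 0.8 in either direction. Blue fills most of both miR-4711-5p columns, deepest for COX6B2, NDUFA12 and UQCRC2. COX6B2 passed the threshold on level only through the Parent and NC-1 libraries. A lighter blue is seen in the NC-1 columns, while NDUFV2 and COX7A2L are red in the miR-4711-5p columns.

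The complexes were not alike in their counts. Against Parent, 21 of 37 complex I genes fell and 1 rose, 4 of 4 complex II genes fell, 7 of 9 of complex III, 10 of 12 of complex IV and 16 of 17 of complex V. Of all genes tested 24.7% fell, and of those at 30 FPKM or more 42.9% fell. After rescaling, 9, 2, 4, 10 and 7 genes of complexes I to V fell under the same FPKM sum, beside 14.8% of all genes tested. Under cyclic loess 10, 2, 4, 5 and 8 fell, beside 20.6% of all genes tested. The medians without rescaling were -0.20, -0.35, -0.26, -0.32 and -0.31. Against NC-1, 8 complex I genes fell and 3 rose, 2 fell in complex II, 1 in complex III, 7 in complex IV, and in complex V 6 fell and 1 rose, with medians of -0.04, -0.10, -0.05, -0.15 and -0.12. The complex V counts include ATP5S and ATP5SL, 2 genes that do not encode subunits and that fell against both references. The shares that fell were 21.6%, 50%, 11.1%, 58.3% and 35.3%, beside 21.2% of all genes tested and 29.1% of those at 30 FPKM or more. Complex I was thus near the share of all genes, and complex III was below it. Under the same FPKM sum the complex I and complex III medians against NC-1 turned to 0.02 and 0.00. In complex I 5 genes fell and 8 rose under that sum, beside 17.3% and 24.3% of all genes tested. In complex IV 4 fell against NC-1 under that sum and 2 under cyclic loess, where 20.6% of all genes tested fell. In NC-1 against Parent, 13, 2, 4, 5 and 10 genes fell in complexes I to V, and 7, 1, 3, 1 and 4 under the same FPKM sum, beside 15.1% and 8.3% of all genes tested. Complex I made up 29.0% and 28.7% of the summed FPKM of the 79 genes in Parent, 29.2% and 28.9% in NC-1, and 30.98% and 30.39% in miR-4711-5p. Both miR-4711-5p libraries were above all 4 control libraries in that share, and complex IV was lower in the same libraries, at 26.8% and 27.3% against 27.8% to 28.1%. No test of complexes against each other was made, since genes are not replicates. The shares of all genes given here also stand beside the counts within each complex below.

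**Figure D3:**
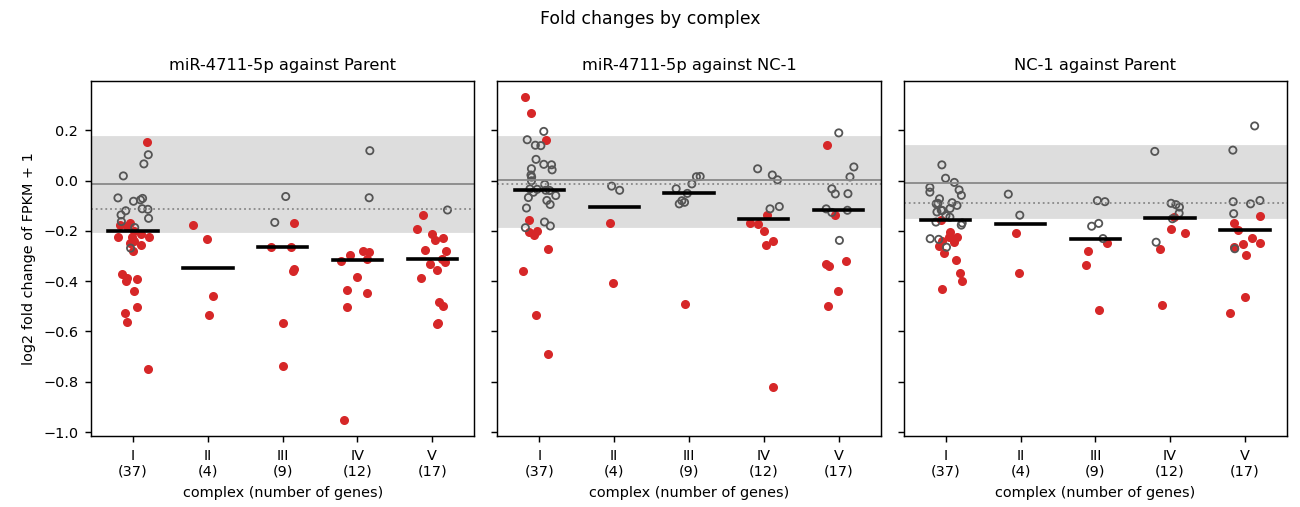
Log2 fold changes of FPKM + 1 (vertical axis) of the 79 genes, grouped by complex (horizontal axis), in the 3 comparisons. Filled points passed an adjusted p of 0.05, open points did not, black bars are medians of a complex, and the grey line, dotted line and band are the median of all 12040 genes tested, the median of those at 30 FPKM or more, and the middle 50% range of all tested. Complex V has 16 of 17 genes filled and below 0 against Parent, while complex I spreads from -0.75 to 0.15.

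**Figure D4:**
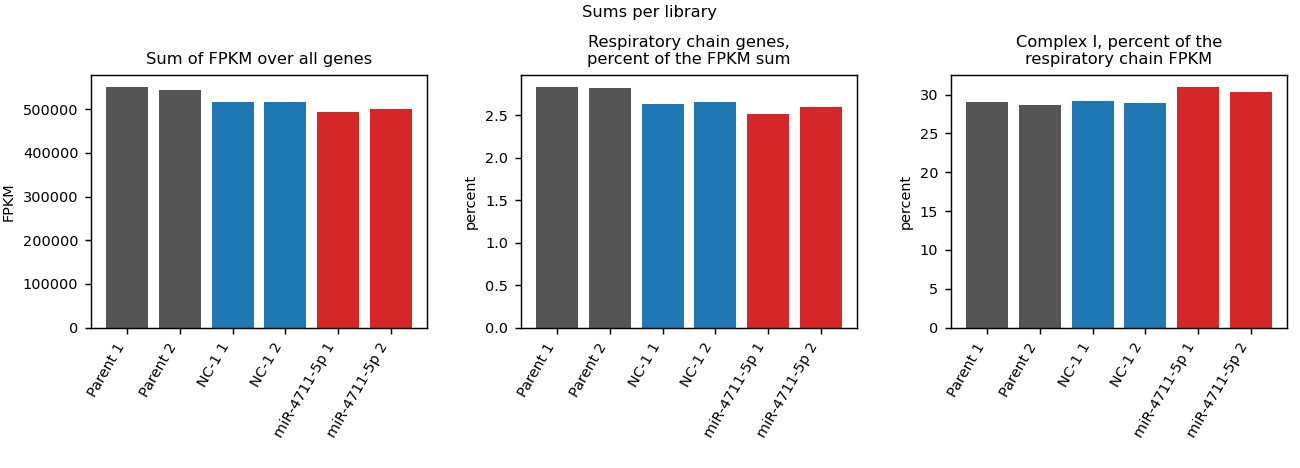
Bars give, for each library, the sum of FPKM over all genes (left), the percent of that sum taken by the 79 respiratory chain genes (middle) and the percent of the respiratory chain sum taken by complex I (right). The middle bars fall from 2.83% and 2.82% in Parent to 2.52% and 2.60% in miR-4711-5p, and the right bars are highest in miR-4711-5p at 30.98% and 30.39%.

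Complex I, NADH dehydrogenase, is built from a core that carries the flavin and the iron-sulphur clusters and from accessory subunits around it. Among the nuclear core genes, 4 fell against Parent and 1 rose. NDUFS7, which holds the last iron-sulphur cluster before ubiquinone, was at 74.1 and 64.5 FPKM in the Parent libraries, 55.9 and 54.6 in the NC-1 libraries and 49.5 and 47.4 in the miR-4711-5p libraries. It fell by 30.1% against Parent, with a log2 fold change of -0.50 ± 0.069 (SE, adjusted p = 0.00117), and was already lower in NC-1 at -0.32 ± 0.069 (SE, adjusted p = 0.0161). NDUFV1, the flavin-bearing subunit that binds NADH, was at 144 and 129.5 FPKM in the Parent libraries, 127 and 124 in the NC-1 libraries and 105 and 103 in the miR-4711-5p libraries. Each miR-4711-5p library was lower than all controls, and the difference passed the test against Parent at -0.39 ± 0.057 (SE, adjusted p = 0.00161) and against NC-1 at -0.27 ± 0.057 (SE, adjusted p = 0.00838).

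NDUFS3, a core subunit near the ubiquinone site, showed a similar order with 72.02 and 72.5 FPKM in the Parent libraries, 66.3 and 62.1 in the NC-1 libraries and 52.8 and 58.5 in the miR-4711-5p libraries, and fell against Parent (-0.37 ± 0.061 (SE, adjusted p = 0.00266)) and NC-1 (-0.20 ± 0.061 (SE, adjusted p = 0.0333)). NDUFS1, the largest iron-sulphur subunit, was at 30.2 and 31.1 FPKM in the Parent libraries, 30.3 and 29.8 in the NC-1 libraries and 26.3 and 25.2 in the miR-4711-5p libraries, and fell against Parent by 15.9% (-0.24 ± 0.049 (SE, adjusted p = 0.00651)) and against NC-1 (-0.21 ± 0.049 (SE, adjusted p = 0.0116)). Its call against Parent was lost under the same FPKM sum. NDUFS8, another iron-sulphur subunit, did not pass against Parent. It was at 129 and 125 FPKM in the Parent libraries, 107 and 128 in the NC-1 libraries and 117 and 118 in the miR-4711-5p libraries. Both miR-4711-5p libraries were below both Parent libraries, and the NC-1 libraries overlapped with both groups.

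NDUFV2, the partner of NDUFV1 in the NADH-binding module, went the other way. It was at 114 and 119 FPKM in the Parent libraries, 119 and 113 in the NC-1 libraries and 129 and 130.1 in the miR-4711-5p libraries. Both miR-4711-5p libraries were above all controls, by a small margin, and the log2 fold change was 0.15 ± 0.046 (SE, adjusted p = 0.0321) against Parent and 0.16 ± 0.046 (SE, adjusted p = 0.0291) against NC-1. The calls were lost under some alternatives, among them the fit without a variance trend. NDUFV1 and NDUFV2 therefore differed in direction although their proteins form 1 module.

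Among the 30 accessory complex I genes, 17 fell against Parent. The deepest decrease among those at 30 FPKM or more, close to that of UQCRC2, was that of NDUFA12 (ENSG00000184752, chr12:95289073-95397524, minus strand, GRCh37), an accessory subunit at the joint of the NADH and ubiquinone modules. It was at 109 and 118 FPKM in the Parent libraries, 104 and 114 in the NC-1 libraries and 67.001 and 67.05 in the miR-4711-5p libraries. NC-1 overlapped with Parent, and the miR-4711-5p libraries were far below both, with -0.75 ± 0.063 (SE, adjusted p = 0.000129) against Parent and -0.69 ± 0.063 (SE, adjusted p = 0.000215) against NC-1. NDUFB5, of the membrane arm, had the same shape at 53.1 and 53.7 FPKM in the Parent libraries, 54.7 and 52.8 in the NC-1 libraries and 37.02 and 36.5 in the miR-4711-5p libraries, and fell by 31.1% against Parent (-0.53 ± 0.044 (SE, adjusted p = 0.000127)) and by 31.6% against NC-1 (-0.54 ± 0.044 (SE, adjusted p = 0.000138)). It is named here after its values were seen. NDUFB10, also of the membrane arm, was at 154 and 144 FPKM in the Parent libraries, 135 and 124 in the NC-1 libraries and 98.7 and 102 in the miR-4711-5p libraries, a stepwise pattern with -0.56 ± 0.057 (SE, adjusted p = 0.000298) against Parent, -0.36 ± 0.057 (SE, adjusted p = 0.00252) against NC-1 and -0.20 ± 0.057 (SE, adjusted p = 0.0371) for NC-1 against Parent.

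Other accessory genes were lowest in NC-1. NDUFA11, a membrane arm subunit, was at 136 and 126 FPKM in the Parent libraries, 92.6 and 101 in the NC-1 libraries and 119 and 115 in the miR-4711-5p libraries, and rose against NC-1 (0.27 ± 0.061 (SE, adjusted p = 0.0114)) without passing against Parent (-0.16 ± 0.061 (SE, adjusted p = 0.0655)). NDUFA3 was at 213 and 215 FPKM in the Parent libraries, 161 and 196 in the NC-1 libraries and 220.1 and 228 in the miR-4711-5p libraries and passed only against NC-1 (0.33 ± 0.084 (SE, adjusted p = 0.0187)). Its NC-1 libraries were far apart. These genes were also chosen after their values were seen, as members of the 4 that rose against NC-1, with NDUFV2 and ATP5G3. Of the remaining accessory genes, NDUFA4, whose protein is now counted with complex IV, was at 82.7 and 76.9 FPKM in the Parent libraries, 75.7 and 75.9 in the NC-1 libraries and 68.8 and 73.1 in the miR-4711-5p libraries, with -0.17 ± 0.053 (SE, adjusted p = 0.039) against Parent, a call that was lost under both scalings.

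Complex II, succinate dehydrogenase, joins the tricarboxylic acid cycle to the chain, and all of its subunits are nuclear. SDHA, the flavoprotein that oxidises succinate, was at 126 and 121 FPKM in the Parent libraries, 96.7 and 94.2 in the NC-1 libraries and 83.8 and 85.8 in the miR-4711-5p libraries. It fell in 2 steps, with -0.37 ± 0.044 (SE, adjusted p = 0.00226) for NC-1 against Parent and -0.17 ± 0.044 (SE, adjusted p = 0.02) for miR-4711-5p against NC-1, to -0.53 ± 0.044 (SE, adjusted p = 0.000115) against Parent. SDHD, a membrane anchor that binds ubiquinone, was below all controls with the miRNA, at 133 and 145 FPKM in the Parent libraries, 126 and 142 in the NC-1 libraries and 101 and 100.1 in the miR-4711-5p libraries, with -0.46 ± 0.068 (SE, adjusted p = 0.00168) against Parent and -0.41 ± 0.068 (SE, adjusted p = 0.00322) against NC-1, while NC-1 against Parent was -0.05 ± 0.068 (SE) and did not pass.

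SDHB, the iron-sulphur subunit, was at 141 and 140.4 FPKM in the Parent libraries, 117 and 126 in the NC-1 libraries and 116 and 123 in the miR-4711-5p libraries, where NC-1 and miR-4711-5p overlapped below Parent. SDHC, the other anchor, was at 37.2 and 39.9 FPKM in the Parent libraries, 34.3 and 35.5 in the NC-1 libraries and 32.98 and 34.96 in the miR-4711-5p libraries. Both passed against Parent (-0.23 ± 0.051 (SE, adjusted p = 0.00965) and -0.18 ± 0.056 (SE, adjusted p = 0.0391)) and lost the call under the same FPKM sum and under cyclic loess. SDHA has annotated pseudogenes, with which reads can be shared, as do 48 of the 79 genes, and how many reads were shared was not measured here.

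Complex III, the cytochrome bc1 complex, passes electrons from ubiquinol to cytochrome c. UQCRC2, a core protein of its matrix side, had the largest decrease of the complex. It was at 140.2 and 142 FPKM in the Parent libraries, 117 and 121 in the NC-1 libraries and 82.4 and 86.1 in the miR-4711-5p libraries. The 3 groups did not overlap, and UQCRC2 fell by 40.3% against Parent (-0.74 ± 0.044 (SE, adjusted p = 2.69e-05)) and by 29.1% against NC-1 (-0.49 ± 0.044 (SE, adjusted p = 0.000204)). UQCRC1, its partner core protein, was at 159.7 and 147 FPKM in the Parent libraries, 103 and 112 in the NC-1 libraries and 101 and 106 in the miR-4711-5p libraries. Its NC-1 and miR-4711-5p libraries overlapped, with -0.52 ± 0.061 (SE, adjusted p = 0.00225) for NC-1 against Parent and -0.05 ± 0.061 (SE, adjusted p = 0.541) between the treated groups, so UQCRC1 fell in NC-1 and was not seen to fall further.

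In the catalytic subunits, as in UQCRC1 but not UQCRC2, the NC-1 and miR-4711-5p libraries overlapped below Parent. CYC1, cytochrome c1, was at 197 and 184 FPKM in the Parent libraries, 151 and 149 in the NC-1 libraries and 142 and 155 in the miR-4711-5p libraries, with -0.35 ± 0.056 (SE, adjusted p = 0.00246) against Parent and -0.01 ± 0.056 (SE, adjusted p = 0.872) against NC-1. UQCRFS1, the Rieske iron-sulphur protein, was at 138 and 139 FPKM in the Parent libraries, 124 and 112 in the NC-1 libraries and 108 and 122 in the miR-4711-5p libraries, with -0.26 ± 0.072 (SE, adjusted p = 0.022) against Parent, a call lost under both scalings. Unlike UQCRC1, it did not pass in NC-1 against Parent (-0.23 ± 0.072 (SE, adjusted p = 0.0513)). Of the 5 small subunits, 3 fell against Parent, and limma called 0 of them against NC-1, also at an unadjusted p under 0.05.

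Complex IV, cytochrome c oxidase, reduces oxygen, and its nuclear subunits surround a mitochondrially encoded core. COX5B, a zinc-binding matrix subunit, was at 337 and 307 FPKM in the Parent libraries, 289.9 and 254 in the NC-1 libraries and 218 and 236 in the miR-4711-5p libraries, with -0.50 ± 0.077 (SE, adjusted p = 0.00208) against Parent and -0.26 ± 0.077 (SE, adjusted p = 0.0349) against NC-1. COX6B1, which sits at the side facing cytochrome c, was at 471 and 451 FPKM in the Parent libraries, 394 and 412 in the NC-1 libraries and 329.8 and 352 in the miR-4711-5p libraries, stepwise and without overlap, with -0.44 ± 0.049 (SE, adjusted p = 0.000503) against Parent and -0.24 ± 0.049 (SE, adjusted p = 0.00745) against NC-1. COX4I1, the ubiquitous form of the largest nuclear subunit, was at 400.5 and 385 FPKM in the Parent libraries, 364 and 366 in the NC-1 libraries and 316 and 331 in the miR-4711-5p libraries. It fell by 17.6% against Parent (-0.28 ± 0.042 (SE, adjusted p = 0.00188)), a call lost under cyclic loess.

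COX5A, a matrix subunit, was at 245 and 248 FPKM in the Parent libraries, 181 and 169 in the NC-1 libraries and 165 and 197 in the miR-4711-5p libraries. It was lower in both treated groups, which overlapped, with -0.49 ± 0.08 (SE, adjusted p = 0.00622) for NC-1 against Parent, -0.45 ± 0.08 (SE, adjusted p = 0.00401) for miR-4711-5p against Parent and 0.05 ± 0.08 (SE) between the treated groups. COX6A1, COX7A2, COX7B and COX8A, small subunits of the membrane part, fell against Parent with log2 fold changes of -0.31, -0.28, -0.38 and -0.32, and the calls of COX6A1, COX7B and COX8A were lost under cyclic loess. COX6B2, the testis form of COX6B1, was at 2.8 and 2.64 FPKM in the Parent libraries, 2.3 and 2.5 in the NC-1 libraries and 1.07 and 0.784 in the miR-4711-5p libraries. It had the largest fitted change, -0.95 ± 0.11 (SE, adjusted p = 0.000655) against Parent, far below the level of COX6B1, and it passed the threshold on level only through the Parent and NC-1 libraries.

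COX7A2L, related in sequence to COX7A2, is known as a factor that joins complexes III and IV into supercomplexes rather than as a plain subunit. It was at 42.8 and 41.8 FPKM in the Parent libraries, 44.1 and 47.8 in the NC-1 libraries and 45.7 and 46.3 in the miR-4711-5p libraries, with 0.12 ± 0.053 (SE) against Parent, which did not pass (adjusted p = 0.108). It was the complex IV gene with the highest fold change.

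In complex V 16 of 17 genes fell against Parent, against 7 under the same FPKM sum and 8 under cyclic loess. The 16 include ATP5S and ATP5SL, which do not encode subunits. All 5 genes of the catalytic head and central stalk fell against Parent, and 3 of them fell against NC-1. ATP5A1, the alpha subunit (now ATP5F1A), was at 297 and 301 FPKM in the Parent libraries, 288 and 259 in the NC-1 libraries and 195 and 207 in the miR-4711-5p libraries. NC-1 reached from just under Parent to well below it, the miR-4711-5p libraries were below all 4 controls, and ATP5A1 fell by 32.8% against Parent (-0.57 ± 0.059 (SE, adjusted p = 0.000351)) and by 26.4% against NC-1 (-0.44 ± 0.059 (SE, adjusted p = 0.00128)). ATP5B, the beta subunit that carries the catalytic sites, was at 763 and 758 FPKM in the Parent libraries, 696 and 683 in the NC-1 libraries and 535 and 554 in the miR-4711-5p libraries, and fell with little spread between libraries (-0.48 ± 0.038 (SE, adjusted p = 9.77e-05) against Parent and -0.34 ± 0.038 (SE, adjusted p = 0.00055) against NC-1). ATP5C1, the rotating gamma subunit, was at 154 and 154 FPKM in the Parent libraries, 134 and 139 in the NC-1 libraries and 106 and 111 in the miR-4711-5p libraries, with -0.50 ± 0.044 (SE, adjusted p = 0.00017) against Parent and -0.33 ± 0.044 (SE, adjusted p = 0.00123) against NC-1.

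The alpha, beta and gamma genes were thus close in size of change, while the other head genes were not. ATP5D, the delta subunit, was at 128 and 112 FPKM in the Parent libraries, 86.01 and 86.5 in the NC-1 libraries and 98.2 and 98.9 in the miR-4711-5p libraries, lowest in NC-1, with -0.46 ± 0.064 (SE, adjusted p = 0.00362) for NC-1 against Parent. ATP5E fell by 9.01% against Parent (-0.14 ± 0.039 (SE, adjusted p = 0.0265)), and this direction turned under both scalings, to 0.0034 under the same FPKM sum and 0.094 under cyclic loess. In the peripheral stalk, which holds the head still, 4 of 4 genes fell against Parent. ATP5O, known as OSCP, which ties stalk to head, was at 219.9 and 234 FPKM in the Parent libraries, 196 and 186 in the NC-1 libraries and 148 and 158 in the miR-4711-5p libraries, stepwise and without overlap, with -0.57 ± 0.055 (SE, adjusted p = 0.000254) against Parent and -0.32 ± 0.055 (SE, adjusted p = 0.00377) against NC-1.

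ATP5G1, ATP5G2 and ATP5G3 encode the same mature c subunit of the rotor ring, and they differed. ATP5G3 was at 82.4 and 80.4 FPKM in the Parent libraries, 57.02 and 55.3 in the NC-1 libraries and 62.3 and 61.7 in the miR-4711-5p libraries. It had the largest decrease of the 79 genes in NC-1 against Parent, -0.53 ± 0.043 (SE, adjusted p = 0.000691), and rose a little in miR-4711-5p against NC-1 (0.14 ± 0.043 (SE, adjusted p = 0.0355)). ATP5G1 was at 180.0 and 161 FPKM in the Parent libraries, 148 and 149 in the NC-1 libraries and 134 and 140.0 in the miR-4711-5p libraries, with -0.31 ± 0.058 (SE, adjusted p = 0.00473) against Parent. ATP5G2 was at 133 and 129 FPKM in the Parent libraries, 135 and 149.8 in the NC-1 libraries and 111 and 130.2 in the miR-4711-5p libraries, with both NC-1 libraries above the others and miR-4711-5p overlapping with Parent. It did not pass in any comparison, with -0.12 ± 0.081 (SE, adjusted p = 0.279) against Parent.

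A pair of genes of the ATP5 series do not encode subunits. ATP5S, known as coupling factor B, was at 5.07 and 6.17 FPKM in the Parent libraries, 6.55 and 6.8 in the NC-1 libraries and 4.32 and 4.55 in the miR-4711-5p libraries, highest in NC-1, with -0.50 ± 0.092 (SE, adjusted p = 0.00504) against NC-1 and -0.28 ± 0.092 (SE, adjusted p = 0.0437) against Parent. ATP5SL, now DMAC2, is an assembly factor of complex I, and was at 38.4 and 37.4 FPKM in the Parent libraries, 35.4 and 35.5 in the NC-1 libraries and 32.3 and 32.1 in the miR-4711-5p libraries, with -0.23 ± 0.044 (SE, adjusted p = 0.00539) against Parent. Both lost the call against Parent under the same FPKM sum.

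**Figure D5:**
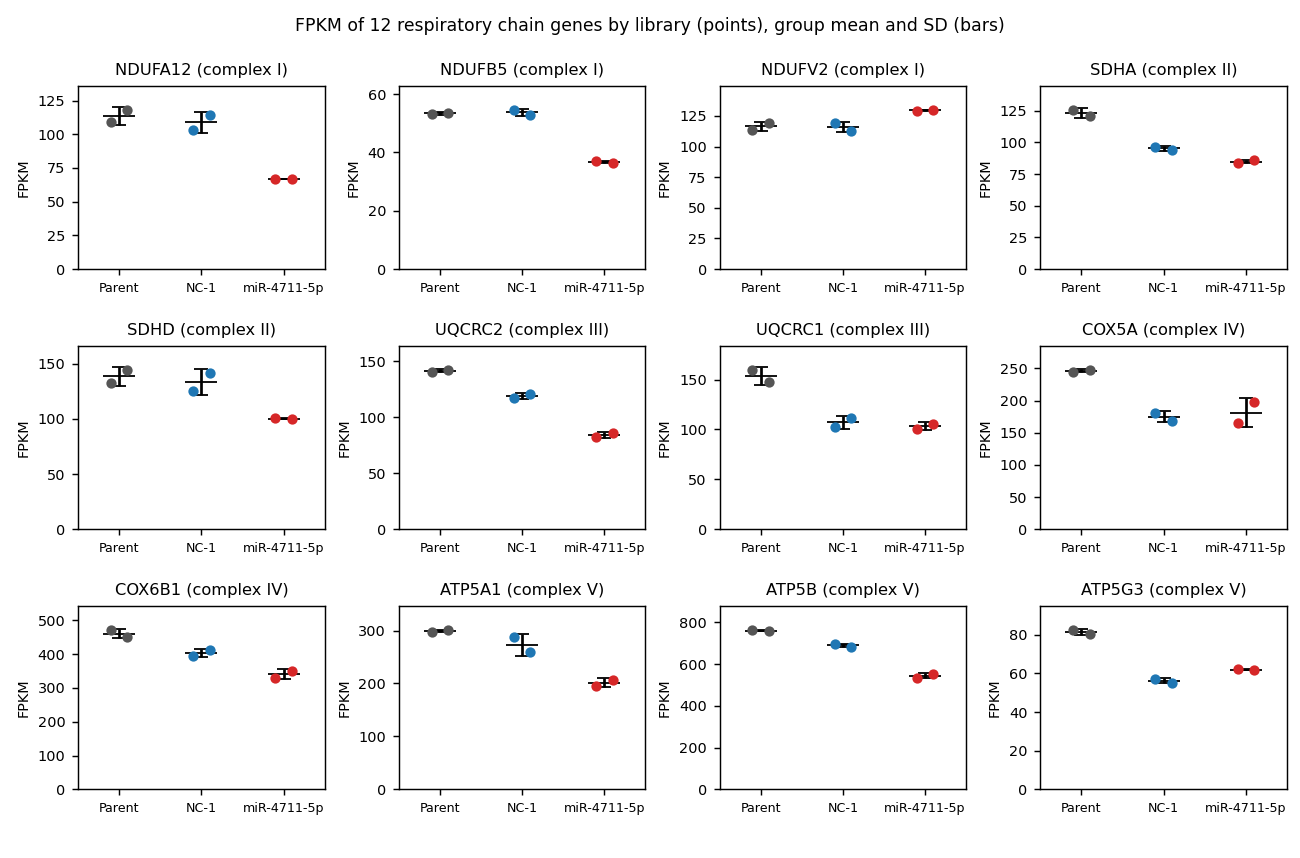
FPKM (vertical axis, from 0) of 12 respiratory chain genes in the 3 groups (horizontal axis). Points are libraries, and bars are the group mean and SD of 2 libraries. For NDUFA12, NDUFB5 and SDHD the NC-1 points overlap with Parent and the miR-4711-5p points lie below both, for UQCRC1 and COX5A the treated groups overlap below Parent, ATP5G3 is lowest in NC-1, and NDUFV2 is highest in miR-4711-5p, at 129 and 130.1 FPKM.

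The sequence of the miRNA and of its matches in these genes is shown so that the matches can be read beside the levels of their genes. Of the 7 genes with a match, 5 are shown, and the sites of COX6C and UQCRB are not printed here. The mature miR-4711-5p, taken from RefSeq (GRCh38.p14, chr1:59733269-59733291, minus strand), is 23 nt long, and the capitals mark its seed, bases 2 to 8. The sites are from 3′ UTRs of GENCODE transcripts on GRCh37, in the sense of the mRNA, and the capitals there mark the match to the seed, which ends in an A for the 8mer and 7mer-A1 kinds.
miR-4711-5p: uGCAUCAGgccagaagacaugag
UQCRC2, 8mer at chr16:21994495-21994502, plus strand: taCTGATGCAcacattacaggagagagctg
NDUFA9, 7mer-A1 at chr12:4800202-4800208, plus strand: taccttggaggTGATGCAgagcagttgagt
NDUFA9, 7mer-m8 at chr12:4800634-4800640, plus strand: tggctacaaaaCTGATGCcttgttccagaa
NDUFA9, 7mer-m8 at chr12:4801278-4801284, plus strand: ttttaagttttCTGATGCtctaagggaagt
NDUFS1, 7mer-m8 at chr2:206982481-206982487, minus strand: gatcagctcttCTGATGCctggttctgtga
NDUFA5, 7mer-m8 at chr7:123180017-123180023, minus strand: tggttctagaaCTGATGCtcctgttatatt
ATP5E, 7mer-A1 at chr20:57601250-57601256, minus strand: ttatttcctcgTGATGCAtaagtgaaaaga

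Seed matches were scarce in these genes. Of the 79 genes, 7 (8.86%) had a match in the longest annotated 3′ UTR, against 18.4% of the 11183 genes tested with an annotated 3′ UTR, and the median 3′ UTR length was 454 nt beside 1495 nt. The 7 were UQCRC2, NDUFA9, NDUFS1, NDUFA5, ATP5E, COX6C and UQCRB. Of these, 5 fell against Parent and 3 against NC-1, beside 53 and 21 of the 72 without a match. Of all genes tested 24.7% and 21.2% fell in these comparisons. In NC-1 against Parent 2 of the 7 and 32 of the 72 fell. UQCRC2, NDUFA9 and NDUFS1 were the 3 that fell with miR-4711-5p against both Parent and NC-1. NDUFA5 was at 9.69 and 11.1 FPKM in the Parent libraries, 9.22 and 9.74 in the NC-1 libraries and 9.53 and 8.49 in the miR-4711-5p libraries and did not pass against Parent (-0.19 ± 0.084 (SE, adjusted p = 0.113)) or NC-1 (-0.07 ± 0.084 (SE, adjusted p = 0.557)). UQCRC2 alone had an 8mer. It begins at base 3 of a 489 nt 3′ UTR, just behind the stop codon, and 1 of 3 coding transcripts of the gene holds it. NDUFA9, with 3 matches in a long 3′ UTR, was at 75.97 and 75.9 FPKM in the Parent libraries, 64.9 and 64.2 in the NC-1 libraries and 57.2 and 58.6 in the miR-4711-5p libraries, with -0.39 ± 0.041 (SE, adjusted p = 0.00039) against Parent and -0.16 ± 0.041 (SE, adjusted p = 0.021) against NC-1. In coding sequence, 8 of 79 genes (10.1%) had a match, against 24.0% of genes tested: COX7A2, NDUFA9, NDUFB5, NDUFS3, NDUFS7, SDHA, UQCRC1 and UQCRFS1. The median transcript length of the 79 genes was 894 nt beside 3185 nt for genes tested. All 8 fell against Parent and 5 against NC-1, beside 50 and 19 of the other 71 and 24.7% and 21.2% of all genes tested. Whether a coding match goes with the decreases was not tested. In NC-1 against Parent, which involves no miR-4711-5p, 5 of the 8 and 29 of the other 71 fell, beside 15.1% of all genes tested. NDUFA12, ATP5A1, ATP5O and NDUFB10, all among the larger decreases against Parent, had no match in 3′ UTR or coding sequence. UQCRC1 and NDUFB5, with decreases of -0.57 and -0.53 against Parent, had one in coding sequence. UQCRC1 was at -0.52 in NC-1 against Parent and at -0.05 with miR-4711-5p against NC-1, where NDUFB5 was at 0.01 and -0.54. In the 65 genes with no match at all, 46 fell against Parent, with a median of -0.25.

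Promoters were compared for motifs of the known regulators. RefSeq promoters (GRCh38.p14, 250 bases before to 50 after the start) were found for 64 of the 79 genes. The NRF1 motif GCGCNNGCGC was in 16 (25%), the ETS motif CCGGAAG in 19 (29.7%) and the YY1 motif AAGATGG in 16 (25%), on either strand. Over all 27305 promoters of the table the shares were 8.78%, 10.7% and 6.06%, and over the 9449 promoters of genes tested here 16.4%, 20.7% and 8.03%. The motifs searched do not contain each other. At least 1 of the motifs was in 39 of the 64 promoters (60.9%), against 38.4% for genes tested. A match is a description of the letters and not of binding.

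Those of 3 genes that fell are shown, chosen after their values were seen, for the different motifs they hold. The capitals mark matches: in SDHA 4 of the NRF1 motif, in COX5B 2 of the ETS motif, and in NDUFA12 the NRF1 and the YY1 motif, the latter 14 bases after the start.
SDHA, chr5:218070-218369, plus strand: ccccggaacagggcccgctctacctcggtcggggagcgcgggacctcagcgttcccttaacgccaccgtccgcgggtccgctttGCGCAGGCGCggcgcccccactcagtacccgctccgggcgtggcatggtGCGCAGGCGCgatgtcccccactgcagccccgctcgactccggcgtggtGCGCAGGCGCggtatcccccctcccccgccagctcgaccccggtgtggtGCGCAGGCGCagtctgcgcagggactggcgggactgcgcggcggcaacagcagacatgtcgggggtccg
COX5B, chr2:97645812-97646111, plus strand: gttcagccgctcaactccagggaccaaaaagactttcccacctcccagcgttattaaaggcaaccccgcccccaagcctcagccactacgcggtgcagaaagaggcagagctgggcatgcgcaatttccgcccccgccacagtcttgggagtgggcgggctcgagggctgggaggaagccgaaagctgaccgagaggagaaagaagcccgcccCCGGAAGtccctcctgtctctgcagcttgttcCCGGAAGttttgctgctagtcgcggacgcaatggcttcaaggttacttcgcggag
NDUFA12, chr12:95003648-95003947, minus strand: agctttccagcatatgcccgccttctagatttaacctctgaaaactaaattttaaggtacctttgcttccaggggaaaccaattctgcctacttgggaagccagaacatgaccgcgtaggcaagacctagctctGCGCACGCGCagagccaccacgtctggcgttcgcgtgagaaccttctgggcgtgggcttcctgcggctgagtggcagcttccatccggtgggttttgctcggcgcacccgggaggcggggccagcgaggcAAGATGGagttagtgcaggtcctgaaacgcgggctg

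The regulators themselves were low to moderate in level. Of the 12 tested of 13 listed, 7 fell and 2 rose against Parent, with a median of -0.24, and 5 fell and 3 rose against NC-1, with a median of 0.02, where 24.7% and 18.7% of all genes tested fell and rose against Parent and 21.2% and 18.4% against NC-1. In NC-1 against Parent 5 fell and 0 rose, with a median of -0.15, where 15.1% and 12.1% of all genes tested fell and rose. TFB2M, a factor for transcription of mitochondrial DNA, was at 14.8 and 15.4 FPKM in the Parent libraries, 12.8 and 11.998 in the NC-1 libraries and 8.11 and 8.71 in the miR-4711-5p libraries, with -0.77 ± 0.062 (SE, adjusted p = 0.00011) against Parent and -0.51 ± 0.062 (SE, adjusted p = 0.000838) against NC-1. GABPB2, a beta subunit that pairs with the ETS factor GABPA, was at 4.46 and 5.23 FPKM in the Parent libraries, 4.71 and 5.01 in the NC-1 libraries and 2.55 and 2.36 in the miR-4711-5p libraries, with -0.76 ± 0.092 (SE, adjusted p = 0.000715) against Parent. PPARGC1B, a coactivator, was at 3.06 and 3.38 FPKM in the Parent libraries, 2.96 and 2.74 in the NC-1 libraries and 2.18 and 1.92 in the miR-4711-5p libraries, with -0.47 ± 0.097 (SE, adjusted p = 0.00732) against Parent. The 2 that rose against Parent, GABPB1 and PPRC1, are named after their values were seen, as are NRF1, GABPA and YY1. GABPB1, the other beta partner of GABPA and more abundant than GABPB2, was at 15.5 and 13.999 FPKM in the Parent libraries, 12.3 and 12.8 in the NC-1 libraries and 20.7 and 20.4 in the miR-4711-5p libraries, above all controls with the miRNA, with 0.45 ± 0.063 (SE, adjusted p = 0.00129) against Parent and 0.67 ± 0.063 (SE, adjusted p = 0.000248) against NC-1. PPRC1, a coactivator related to PPARGC1B, was at 19.4 and 18.5 FPKM in the Parent libraries, 18.5 and 19.2 in the NC-1 libraries and 22.1 and 21.3 in the miR-4711-5p libraries, with 0.18 ± 0.053 (SE, adjusted p = 0.0293) against Parent. NRF1 was at 6.89 and 7.89 FPKM in the Parent libraries, 5.98 and 5.9 in the NC-1 libraries and 6.005 and 6.39 in the miR-4711-5p libraries and did not pass with miR-4711-5p against Parent (-0.22 ± 0.078 (SE, adjusted p = 0.056)). It was lower in NC-1 than in Parent (-0.27 ± 0.078 (SE, adjusted p = 0.0402)). GABPA was at 5.74 and 7.26 FPKM in the Parent libraries, 7.47 and 7.51 in the NC-1 libraries and 4.42 and 4.84 in the miR-4711-5p libraries. It fell against Parent (-0.41 ± 0.10 (SE, adjusted p = 0.0163)) and against NC-1 (-0.59 ± 0.10 (SE, adjusted p = 0.00376)). YY1 passed narrowly against Parent (-0.15 ± 0.053 (SE, adjusted p = 0.0497)) and did not pass against NC-1 (0.01 ± 0.053 (SE, adjusted p = 0.928)).

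Genes that build or feed the chain were counted in the same way, and the shares of all genes tested given for the regulators stand beside these counts too. Of 8 tested subunits and carriers outside the symbol pattern, 5 fell against Parent. Among them, NDUFAB1, the acyl carrier protein that is also a complex I subunit, was at 208 and 212 FPKM in the Parent libraries, 177 and 164 in the NC-1 libraries and 148 and 152 in the miR-4711-5p libraries (-0.49 ± 0.048 (SE, adjusted p = 0.000269) against Parent), and ETFB, of the electron transfer flavoprotein, was at 107 and 102 FPKM in the Parent libraries, 106 and 101 in the NC-1 libraries and 78.9 and 81.4 in the miR-4711-5p libraries (-0.37 ± 0.048 (SE, adjusted p = 0.000953) against Parent). Of 14 complex I assembly factors 6 fell, and of 31 assembly factors of complexes II to V 7 fell and 5 rose, with medians of -0.15 and -0.13. The 7 of 31 were thus near the 24.7% of all genes tested. Against NC-1 3 complex I factors fell and 2 rose, and 6 factors of complexes II to V fell and 6 rose. In NC-1 against Parent, 3 complex I factors, 10 of the 31 factors of complexes II to V and 2 of the 8 subunits and carriers fell. In these lists 0 rose, where 15.1% of all genes tested fell and 12.1% rose. COA3, which helps to assemble complex IV, was at 53.8 and 54.6 FPKM in the Parent libraries, 42.8 and 43.9 in the NC-1 libraries and 34.2 and 36.5 in the miR-4711-5p libraries (-0.60 ± 0.049 (SE, adjusted p = 0.000116) against Parent), and COX19, a copper-related factor, rose from 3.6 and 3.52 in Parent to 4.73 and 5.23 FPKM (0.39 ± 0.078 (SE, adjusted p = 0.00642)).

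In ubiquinone synthesis 4 of 13 genes fell and 1 rose against Parent, beside 24.7% and 18.7% of all genes tested, and against NC-1 2 fell and 1 rose, with a median of 0.01. COQ9, a lipid-binding protein of this route, was at 45.9 and 40.5 FPKM in the Parent libraries, 37.1 and 37.6 in the NC-1 libraries and 22.1 and 22.6 in the miR-4711-5p libraries, with -0.92 ± 0.064 (SE, adjusted p = 5.64e-05) against Parent and -0.71 ± 0.064 (SE, adjusted p = 0.00021) against NC-1. In the tricarboxylic acid cycle without its complex II members, 12 of 14 genes fell against Parent, with a median of -0.25, and against NC-1 6 fell and 1 rose. In NC-1 against Parent, 5 of these 14 genes and 2 of the 13 of ubiquinone synthesis fell. In both lists 0 rose, where 15.1% of all genes tested fell and 12.1% rose. OGDH, the substrate-oxidising subunit of the oxoglutarate dehydrogenase complex, was at 71.5 and 68.7 FPKM in the Parent libraries, 69.1 and 69.8 in the NC-1 libraries and 31.5 and 30.7 in the miR-4711-5p libraries, with both miR-4711-5p libraries below all controls and -1.15 ± 0.045 (SE, adjusted p = 5.32e-06) against Parent and -1.13 ± 0.045 (SE, adjusted p = 7.26e-06) against NC-1. IDH2, the NADP-dependent isocitrate dehydrogenase of mitochondria, was at 17.9 and 18.5 FPKM in the Parent libraries, 16.2 and 14.5 in the NC-1 libraries and 11.5 and 12.3 in the miR-4711-5p libraries, with -0.57 ± 0.067 (SE, adjusted p = 0.0006) against Parent. The values of OGDH and COQ9 compare with -0.75 for NDUFA12, and these differences between genes were not tested.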

How the data were processed

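Stranded mRNA libraries of BxPC-3 cells (3 groups of 2) were mapped to hg19 by the authors with TopHat2 2.1.1, Bowtie2 2.3.5.1 and SAMtools 1.2, and the deposited FPKM values per gene symbol came from Cufflinks 2.2.1 (versions per the submitters' processing notes). The annotation, strand option and scaling option are not given in the sources used here. FPKM are not counts, so limma 3.58.1 (R 4.3.3; lmFit, contrasts.fit, eBayes with trend) was fitted to log2(FPKM + 1) for the 12040 genes that averaged 1 FPKM or more, all 6 libraries in 1 fit without covariates, two-sided, with Benjamini-Hochberg adjustment over all genes at 0.05. The added 1 shrinks the fold changes of low genes. The fit was tested on simulated data. Percent changes are ratios of mean FPKM. Genes named are a core set, the 6 largest decreases and increases against both references, the 3 largest changes in NC-1, isoforms, non-subunits, up to 3 genes a list, and those said to be chosen later; 1 gene of the core set is not reported here. The members and lists were chosen with earlier results of these data known. Sites, promoters and coordinates came from GENCODE v44 on GRCh37 and from RefSeq, with Python 3.11.15. All 79 symbols matched, 17 through an older symbol. Scalings, filters, the pseudocount, the fit and single libraries were varied, and the mitochondrially encoded genes were not analysed here.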

Additional observations from a re-analysis of the deposited data

How the results depend on the processing

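The median log2 fold change of the 79 respiratory chain genes stayed below 0 in all 3 comparisons under every alternative run. Against Parent, where 58 genes fell and 1 rose with a median of -0.26, the same FPKM sum in every library gave 32 lower, 4 higher and a median of -0.12, cyclic loess gave 29, 4 and -0.12, and median-of-ratios scaling moved the median to -0.24. The count of genes that rose went to 0 without the variance trend and with the replicate block. Against NC-1, where 24 fell and 4 rose with a median of -0.07, the same FPKM sum gave 10 higher and a median of -0.018 (16 lower), cyclic loess gave 7 higher and -0.035 (18 lower), the fit without a variance trend gave 2 higher, and removal of a trend with length and GC content, added after the data were seen, moved the median to -0.086. For NC-1 against Parent, where 34 fell and 0 rose with a median of -0.17, the same FPKM sum gave 16 lower, 1 higher and -0.085, cyclic loess gave 13, 1 and -0.077, no filter on low values gave 20 lower, the fit without a variance trend gave 22 lower, and the length and GC removal moved the median to -0.13. Without the filter 2165 of all genes were called there. The cause of these shifts was not tested. For the same FPKM sum and cyclic loess, the shares of all genes tested are given above beside the same counts.

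Leaving out 1 library at a time gave 36 to 54 lower and 0 to 1 higher against Parent with a median of -0.28 to -0.25, 13 to 22 lower and 1 to 6 higher against NC-1 with a median of -0.10 to -0.036, and 14 to 27 lower and 0 to 1 higher for NC-1 against Parent with a median of -0.20 to -0.16. Over all genes tested these fits called 3164 to 5135, 2815 to 4639 and 1355 to 2296 genes. A group left with 1 library was assumed to vary like the others. The replicate numbers did not pair the samples: the deviations of same-numbered libraries correlated at 0.061, 0.0030 and -0.0089 over 12040 genes, and the replicate block gave 55, 21 and 33 lower genes in the 3 comparisons.

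Of single genes that passed, 2 changed sign: ATP5E against Parent, to 0.0034 under the same FPKM sum and 0.094 under cyclic loess, and NDUFS6 against Parent, to 0.0067 under cyclic loess. Decreases called under every alternative numbered 25 of 58 against Parent, 11 of 24 against NC-1 and 10 of 34 for NC-1 against Parent, and no increase was. Among the respiratory chain genes, 20, 51 and 45 did not pass in the 3 comparisons. Each pair of such a gene and an alternative was counted. Of these pairs 13, 39 and 37 passed, and 23, 71 and 41 changed sign without passing. The number of reads behind each value is unknown, and with 2 libraries a group the adjusted p rests on spread shared across genes.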
